A study of Mus musculus with 9 samples.

Results

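The comparison described here sets 1 bladder array of tumour-bearing mice treated with 17 mM alpha1-oleate against 1 array of sham-treated tumour-bearing mice, both from experiment 1 of a series of 9 arrays in 2 numbered experiments. The pair was taken by its labels, as the log2 value at 17 mM minus that of the sham array, and the sham array of experiment 2 was used only as a check. All mice were female C57BL/6J. After preconditioning of the bladder with poly-L-lysine, cells of the mouse bladder carcinoma line MB49 were instilled on day 0. Treated mice then had alpha1-oleate put into the bladder 5 times from day 3 to day 11, sham-treated mice had PBS at those times, and tissue was taken on day 12. Alpha1-oleate is a complex of an N-terminal peptide of the milk protein alpha-lactalbumin with oleate, the anion of a common fatty acid. Experiment 1 also holds a healthy bladder given PBS and tumour bladders given 1.7 or 8.5 mM, with 1 array each. These 3 arrays are quoted beside the pair, and the dose comparisons share the same sham array. There are no replicates at 17 mM, so no test was made, and differences are described as sizes. The labels do not say whether an array holds 1 animal or a pool, or whether the arrays come from separate animals. MB49 is a single line grafted onto the inner bladder surface, so the arrays hold tumour cells, host bladder and infiltrating cells together.

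The normal bladder is lined by the urothelium, whose surface cells carry plaques of uroplakin proteins that seal the organ against urine. Beneath it lie a connective tissue layer rich in fibroblasts and the detrusor, the smooth muscle that empties the bladder. A tumour growing from the lumen brings in dividing cells, new vessels and leukocytes, and a whole-bladder sample changes as the proportions of these tissues change.

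Levels are the authors' log2 RMA values, in which a difference of 1 is 2-fold. Of 17097 genes, the 11969 whose mean over the 9 arrays lay above 4.16 log2 were compared. At 17 mM 1426 genes (11.9%) were at least 2-fold higher than in the sham-treated tumour and 833 (6.96%) were at least 2-fold lower. At 4-fold or more, 522 were higher and 72 lower. The median difference over all genes was -0.06, and the array medians of experiment 1 lay between 4.42 and 4.45.

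The distance between the sham arrays gives the only measure of spread between sham-treated tumour arrays. The arrays come from different experiments, so spread between bladders and a difference between experiments cannot be told apart in it. With all 9 arrays normalized together, sham of experiment 2 minus sham of experiment 1 was at least 2-fold higher for 90 genes (0.752%) and lower for 205 (1.71%). Its SD over genes was 0.402 log2, against 0.853 for 17 mM minus the sham of experiment 1 and 0.960 for 17 mM minus the sham of experiment 2. The absolute gap between sham arrays had a median of 0.222 and a 95th percentile of 0.833. A gene was said to lie beyond both sham arrays when it was at least 2-fold from each in the same direction, the second distance taken after joint normalization. That held for 1237 genes above (10.3%) and 576 below (4.81%). Of the 2-fold higher genes 86.7% were also 2-fold above the sham array of experiment 2, and of the 2-fold lower genes 69.1% were also 2-fold below it. The number of arrays limits the precision of every value that follows.

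**Figure D1:**
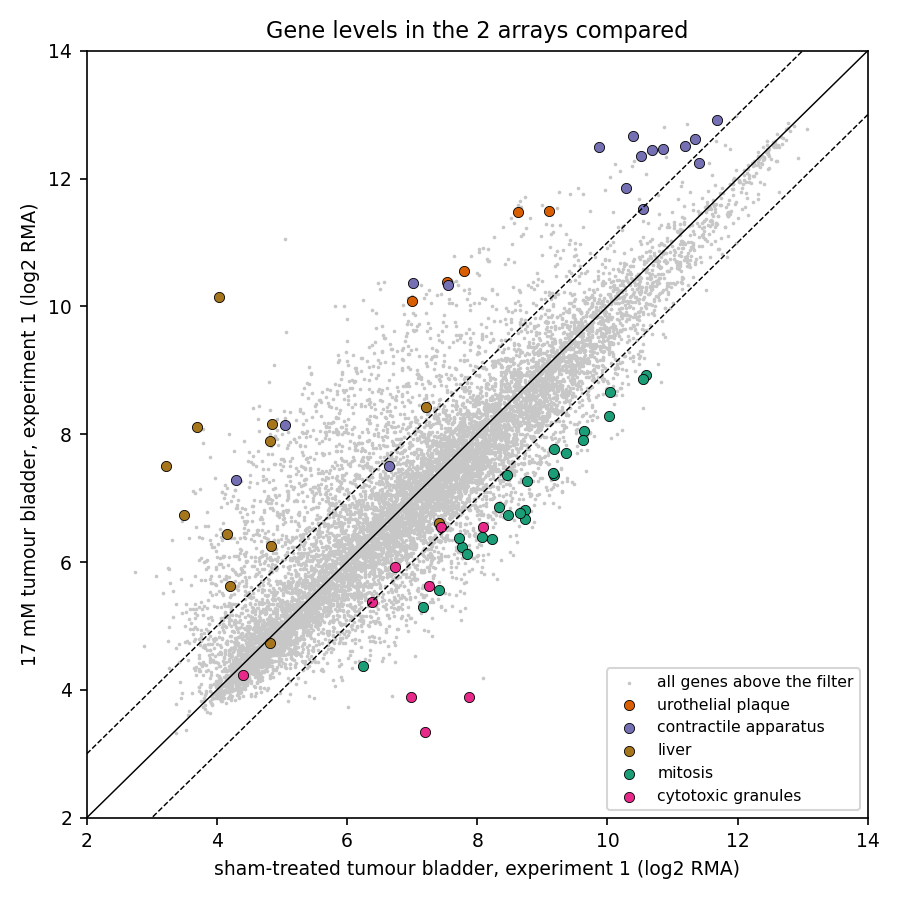
Log2 level of each gene above the filter in the sham-treated tumour bladder (x axis) and the 17 mM tumour bladder (y axis) of experiment 1, 1 array each, with members of 5 gene lists coloured. The solid line marks equal levels and the dashed lines a 2-fold difference; all 25 mitosis genes lie below the lower dashed line and all 5 uroplakin genes above the upper one.

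The genes of cell division were lower at 17 mM without exception among those listed. All 25 mitosis genes were at least 2-fold lower than in the sham array and beyond both sham arrays, with differences from -2.06 to -1.10 and a median of -1.71, while the sham arrays differed by a median of -0.17 over the same genes. Mki67, the proliferation antigen, read 3.72 in the healthy bladder, 9.64 in the sham-treated tumour, 9.32 at 1.7 mM, 8.49 at 8.5 mM and 8.05 at 17 mM. Top2a, the topoisomerase that untangles replicated chromosomes, read 4.43, 10.59, 10.27, 9.30 and 8.93 on the same 5 arrays. Both genes stood between the sham-treated tumour and the healthy bladder, and nearer the tumour. Bub1, a kinase of the spindle checkpoint, was lower by 1.92 (8.74 in the sham array, 6.82 at 17 mM), and Cdk1, the kinase that starts mitosis, by 1.67 (9.37 and 7.70). Aurka, a spindle pole kinase, read 8.22 in the sham array and 6.36 at 17 mM, and Birc5, a chromosomal passenger protein that also blocks cell death, read 10.02 and 8.29. The median of the list was still 2.66 above the healthy bladder at 17 mM.

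DNA replication genes followed with smaller differences. Of 24, 21 were at least 2-fold lower and 16 lay below both sham arrays, with a median of -1.31. Tk1, thymidine kinase, read 4.15 in the healthy bladder, 9.18 in the sham-treated tumour, 8.98 at 1.7 mM, 7.82 at 8.5 mM and 7.23 at 17 mM. Rrm2, the ribonucleotide reductase subunit that makes deoxynucleotides, read 4.50, 9.84, 10.65, 8.64 and 8.27, so its highest value was at 1.7 mM. The 6 subunits of the MCM helicase, Mcm2 to Mcm7, differed by -1.15 to -1.52. The members short of 2-fold were Tyms (-0.97), Pcna (-0.78) and Rfc3 (-0.69). The differences of the 8.5 mM array from the same sham array had medians of -1.28 for mitosis and -0.96 for replication, and those of the 1.7 mM array -0.14 and -0.19.

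Regulators of the start of the cycle were divided. Of 15, 7 were at least 2-fold lower and 2 higher, and 4 of the 7 lay below both sham arrays. E2f8, a repressor of the E2F family, was lower by 1.93, Ccne1, cyclin E1, by 1.30 and Myc by 1.09. The cyclin-dependent kinase inhibitors Cdkn2b and Cdkn1c were higher by 1.55 and 1.06, and Cdkn2b read 7.94 in the healthy bladder, 5.53 in the sham array and 7.08 at 17 mM. Cdkn1a, the p21 inhibitor, was 0.89 lower.

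Because the mitosis and replication genes differed together, promoter letters of these lists were read from RefSeq windows (GRCm38.p6) of 250 bases before to 50 after each start, on both strands. The cell cycle homology region, searched as TTTGAA or TTCGAA, was in the windows of 17 of the 21 mitosis genes with a promoter (81.0%) against 21.7% of all 27025 genes with one. CCAAT was in 16 of those 21 (76.2%) against 41.1%. E2F letters, TTTGGCGC, TTTCCCGC or TTTCGCGC, were in 9 of 21 replication genes (42.9%) against 2.12%. The stretches of 100 bases below show the match nearest the start in capitals for the 2 mitosis and 2 replication genes with the largest decreases among those with a match; they are descriptions of letters, and no binding was measured.
Bub1, chr2:127831830-127831929, minus strand: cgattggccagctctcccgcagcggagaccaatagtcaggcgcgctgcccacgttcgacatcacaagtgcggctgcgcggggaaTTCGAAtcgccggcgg
Kif11, chr19:37376312-37376411, plus strand: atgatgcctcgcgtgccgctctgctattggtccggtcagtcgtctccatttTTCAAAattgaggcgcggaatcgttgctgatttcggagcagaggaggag
Mcm5, chr8:75109314-75109413, plus strand: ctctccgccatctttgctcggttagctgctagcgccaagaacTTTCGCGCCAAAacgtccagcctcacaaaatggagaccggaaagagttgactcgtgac
Mcm7, chr5:138171854-138171953, minus strand: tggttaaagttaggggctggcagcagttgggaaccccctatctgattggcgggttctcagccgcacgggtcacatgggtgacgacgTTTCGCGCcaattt
In the Bub1 and Kif11 stretches the capitals mark the homology region, in Kif11 read from the opposite strand. The capitals of Mcm5 are 2 overlapping E2F matches on opposite strands, and those of Mcm7 overlap a CCAAT match by their last base. Kif11, a spindle motor protein, read 7.17 in the sham array and 5.30 at 17 mM, and Mcm5 and Mcm7, helicase subunits, read 8.53 and 7.01, and 9.52 and 8.02.

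Several genes that lay under the filter's level in the healthy bladder and high in the sham-treated tumour were among the 15 largest decreases. Dppa2, a gene of early embryos and germ cells, read 2.66 in the healthy bladder, 8.55 in the sham-treated tumour, 7.83 at 1.7 mM, 6.42 at 8.5 mM and 6.11 at 17 mM. Xlr, an X-linked gene named for lymphocyte expression, read 2.59, 8.50, 8.50, 6.57 and 6.16, and Piwil4, an Argonaute-family protein of the germ line, read 2.91, 7.74, 7.52, 5.57 and 5.24. Nxf3, of the nuclear RNA export factor family, read 3.02, 7.75, 7.78, 4.96 and 5.10. These 4 genes read 5.10 to 6.16 log2 at 17 mM, with little difference between the sham and 1.7 mM arrays except in Dppa2. Prkg2, a cGMP-dependent kinase placed on the list of genes restricted to tumour cells, read 3.31, 9.67, 9.71, 7.48 and 7.42, and was 2.50 lower than the sham array of experiment 2. The only other member of that list above the filter, Igf2bp1, differed by 0.01. Among sex-linked genes, Xist, the transcript of the inactive X chromosome in female cells, read 10.32 in the healthy bladder, 9.15 in the sham array and 10.21 at 17 mM, but its distance from the sham array of experiment 2 was 0.68. The Y-linked genes Eif2s3y, Kdm5d and Uty were under the filter on average and gave no measure of the line.

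The urothelial genes were higher at 17 mM. All 5 uroplakins, the plaque proteins, were beyond both sham arrays, by 2.39 to 3.08 over the sham of experiment 1, with a median of 2.84 against -0.34 between the sham arrays. Upk3a read 12.01 in the healthy bladder, 8.62 in the sham-treated tumour, 9.36 at 1.7 mM, 11.27 at 8.5 mM and 11.48 at 17 mM. Upk2 read 11.22, 7.80, 8.33, 10.40 and 10.56. The label of the tissue was borne out by these plaque genes, which read at least 7.00 on each of the 5 arrays. Each uroplakin lay closer to the healthy bladder at 17 mM than to the sham-treated tumour, and the 8.5 mM array read slightly below the 17 mM array for each of the 5. In such bulk samples fewer cells of a type and less RNA per cell cannot be told apart.

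Of 13 transcription and splicing regulators of the urothelium, 11 were higher and beyond both sham arrays, with a median of 2.45. Pparg, the nuclear receptor of urothelial differentiation, read 9.20 in the healthy bladder, 5.59 in the sham-treated tumour, 6.49 at 1.7 mM, 8.26 at 8.5 mM and 8.53 at 17 mM. Trp63, the p63 factor of basal cells, was higher by 2.91, Foxa1 by 2.45, Gata3 by 2.24 and Esrp1, an epithelial splicing factor, by 2.46. Another probe set of Trp63 was higher by 0.49. Klf5 differed by 0.03 and Ovol1 by 0.68, and Ovol1 was 0.07 below the sham array of experiment 2. Krt20, of surface cells, was higher by 3.04, Krt7 by 2.30, and Krt19 read 11.14 against 9.14 in sham, whereas Krt8 and Krt18 differed by -0.05 and 0.24 and read at least 11.46 on every array of experiment 1. Among basal keratins Krt5 and Krt15 were higher by 2.06 and 1.62. Krt14 read 4.28 in the healthy bladder, 9.93 in the sham array and 8.63 at 17 mM, lower by 1.30 but by only 0.91 against the sham array of experiment 2. Squamous genes were split too, with 4 of 7 higher and 1 lower. Ivl, an envelope precursor, was higher by 2.44, and Krt16 was lower by 1.12 but 0.36 above the sham array of experiment 2.

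Junction genes gave the same contrast between members. Of 13 tight junction genes, 7 were higher and 1 lower, all beyond both sham arrays. Cldn8, a sealing claudin, read 10.56 in the healthy bladder, 6.00 in the sham-treated tumour, 6.64 at 1.7 mM, 9.44 at 8.5 mM and 9.80 at 17 mM. Cldn3 ran the other way, reading 4.66, 6.72, 6.59, 5.36 and 5.28. The scaffold Tjp1 and the adhesion protein F11r differed by -0.05 and -0.12. Of 9 desmosome and epithelial adhesion genes 6 were higher, among them Dsg2, a desmosomal cadherin, by 3.00, Cdh1, E-cadherin, by 2.06 and Epcam by 1.86. None of 7 mesenchymal regulators above the filter was 2-fold from the sham array, and Vim, vimentin, differed by -0.32. Over all 9 on the array 1 was higher and none lower. Cdh2, N-cadherin, under the filter, read 4.33 in the healthy bladder, 3.61 in the sham array, 5.18 at 8.5 mM and 5.57 at 17 mM. None of 6 hemidesmosome genes was 2-fold from the sham array, on the probe set of highest mean that stood for each gene. Dst differed by 0.15 on that probe set but was higher by 2.47 on another. Itga6, the integrin subunit of basal cells, read 11.14 in the sham array and 10.27 at 17 mM.

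**Figure D2:**
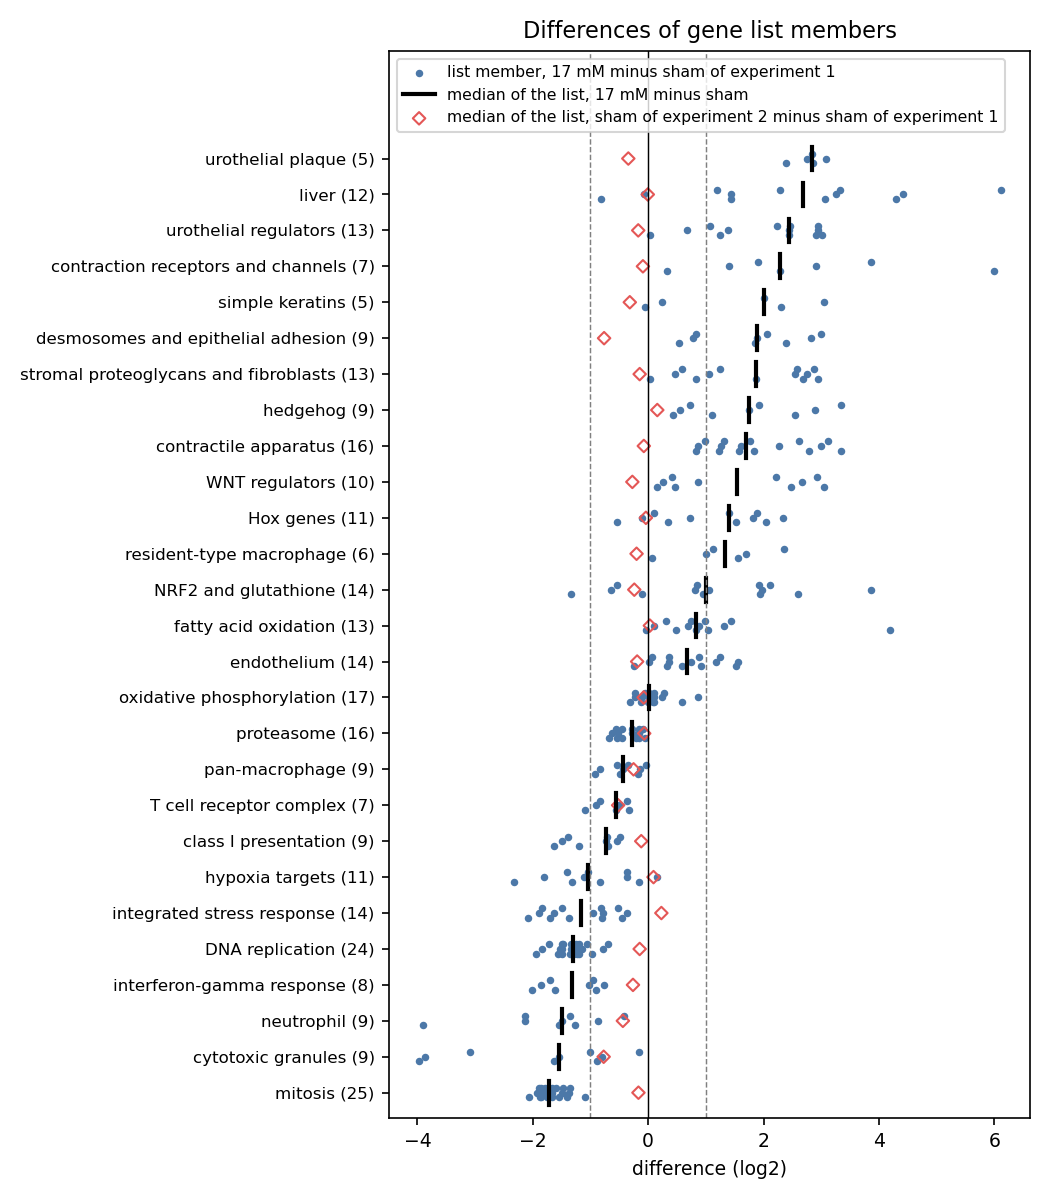
Difference at 17 mM minus the sham array of experiment 1 (log2, x axis) for every member above the filter of 27 of the gene lists (rows, number of genes in brackets, ordered by median). Dots are genes, black bars the list medians, open diamonds the list medians of sham of experiment 2 minus sham of experiment 1, and dashed lines 2-fold. The uroplakin median is 2.84 and the mitosis median -1.71, and the diamonds lie farthest from 0 for cytotoxic granules (-0.77) and desmosomes (-0.76).

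Smooth muscle genes were higher too, and passed the level of the healthy bladder. Of 16 genes of the contractile apparatus 13 were at least 2-fold higher and beyond both sham arrays, with a median of 1.69 and a median of 0.61 above the healthy array. Myh11, the smooth muscle myosin heavy chain, read 11.82 in the healthy bladder, 9.87 in the sham-treated tumour, 11.01 at 1.7 mM, 12.16 at 8.5 mM and 12.49 at 17 mM. Myocd, the coactivator of smooth muscle genes, read 6.70, 4.29, 5.34, 6.76 and 7.28. Cald1, Srf and Flna were 0.83, 0.86 and 0.99 higher and stayed short of 2-fold, although another probe set of Cald1 was 1.56 higher. Of 7 genes for contraction receptors and channels 6 were higher. Pcp4, a calmodulin regulator, read 9.85 in the healthy bladder, 5.05 in the sham-treated tumour, 8.79 at 1.7 mM, 10.78 at 8.5 mM and 11.05 at 17 mM, a difference of 6.00, or 64-fold. P2rx1, the ATP receptor through which nerves drive the detrusor, read 9.31, 6.24, 7.79, 9.65 and 10.10. Kcnma1, the pore of the calcium-activated potassium channel, differed by 0.33, while its accessory subunit Kcnmb1 was higher by 2.29. Another probe set of Kcnmb1 was higher by 0.86. Of 11 striated muscle genes on the array 7 lay above the filter. Of these 4 were higher, and the median was 1, or 0.18 over all 11. Without the 8.5 and 17 mM arrays 6 of the 7 stayed above the filter. Ckm, muscle creatine kinase, was higher by 3.52 but by only 0.04 on another probe set. Acta1, Myh2 and Tnnt3 were higher by 2.01, 1.37 and 1, all beyond both sham arrays, and Tnnc2 was higher by 0.99. The remaining members above the filter, Tnni2 and Actn3, differed by 0.18 and -0.11. The CArG box, the letters bound by serum response factor, was in 2 of 13 promoters of the contractile genes (15.4%), against 1.81% of all genes. The summed linear level of the contractile genes was 21437 in the sham array, 14251 in the sham array of experiment 2, 63372 at 17 mM and 42628 in the healthy bladder of experiment 1.

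Matrix genes of fibroblasts stood above the sham array and, in several cases, above the healthy bladder. Of 13 stromal proteoglycan and fibroblast genes 9 were higher and 8 beyond both sham arrays, with a median of 1.87. Fbln1, a matrix glycoprotein, read 10.11 in the healthy bladder, 8.52 in the sham-treated tumour, 9.93 at 1.7 mM, 11.25 at 8.5 mM and 11.39 at 17 mM, and Lum, lumican, read 9.75, 8.81, 10.28, 11.39 and 11.39. Fmod, fibromodulin, was the exception to the check, higher by 1.06 than the sham array of experiment 1 and 0.11 below that of experiment 2. Of 9 genes for fibrillar collagens and their cross-linking 5 were higher. Col1a1 read 8.92 in the healthy bladder, 8.98 in the sham-treated tumour, 9.77 at 1.7 mM, 10.99 at 8.5 mM and 11.10 at 17 mM. In experiment 2 Col1a1 read 7.69 in the healthy bladder and 8.71 in the sham-treated tumour, so an excess of tumour over healthy was seen there and not in experiment 1. Plod2, a collagen hydroxylase, was 0.82 lower. Among wound matrix genes 4 of 7 were higher, with Thbs2, thrombospondin 2, by 2.04 and Postn, periostin, by 1.60, and Ccn1 differed by 0.01.

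Matrix proteases divided by enzyme. Of 7, 4 were lower and beyond both sham arrays. Mmp13, a collagenase, read 3.77 in the healthy bladder, 10.05 in the sham-treated tumour, 8.66 at 1.7 mM, 8.65 at 8.5 mM and 7.94 at 17 mM. Mmp12, the macrophage elastase, was lower by 1.88, Adam8 by 2.01 and Mmp9, a gelatinase, by 1.18. The other gelatinase, Mmp2, was higher by 2.26 (7.85 and 10.11), and the inhibitors Timp3 and Reck by 2.34 and 2.73. All 3 plasminogen system genes were lower, Plaur, the urokinase receptor, by 1.53, and 1 of them, Plaur itself, lay beyond both sham arrays. Plau, urokinase, was 0.31 above the sham array of experiment 2.

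Among signalling genes that pattern the bladder wall, 2-fold differences were mostly increases, and many members fell short of 2-fold. Of 9 hedgehog pathway genes 6 were higher and 4 beyond both sham arrays, with a median of 1.75 against the sham array of experiment 1 and 0.95 against that of experiment 2. Shh, the ligand made by basal urothelium, read 7.41 in the healthy bladder, 3.92 in the sham-treated tumour, 4.53 at 1.7 mM, 5.43 at 8.5 mM and 5.67 at 17 mM, and its distance from the sham array of experiment 2 was 0.95. Ptch1, receptor and target, read 8.10, 7.08, 7.41, 8.41 and 9.01. Gli2, a transcription factor of the pathway, read 5.53, 4.76, 5.42, 6.44 and 7.30, and was the only gene not known for expression in liver among the 10 at which the 17 mM array stood farthest above the rest of experiment 1. Another probe set of Gli2 was higher by 1.24. The stromal ligands Bmp4 and Bmp5 were higher by 2.89 and 3.34, and Smo and Gli3 differed by 0.72 and 0.55. Of 10 WNT regulators 5 were higher and none lower. Wnt5a was higher by 2.92, Wnt4 by 2.21 and the secreted inhibitors Dkk2, Dkk3 and Sfrp2 by 2.66, 3.05 and 2.47, whereas the target Axin2 differed by 0.42 and the agonist Rspo1 by 0.16. Of 11 Hox genes 6 were higher and none lower, with a median of 1.40, or 0.73 over all 13 on the array. The 6 are of paralogue groups 9 to 13, with Hoxa10 higher by 2.33, Hoxa11 by 2.04, Hoxd13 by 1.88 and Hoxa13 by 1.82, while Hoxa9, Hoxc9 and Hoxb9 of the same groups differed by 0.73, 0.10 and -0.54. In the retinoic acid list 4 of 10 were higher and 1 lower. Aldh1a1, which makes retinoic acid, was higher by 2.80, Rbp4, the retinol carrier, by 4.02, and Crabp2, a cellular binding protein, was lower by 2.08. Rbp4 read 6.77 in the healthy bladder, 4.80 in the sham array, 6.08 at 1.7 mM, 8.17 at 8.5 mM and 8.82 at 17 mM. The tissue that gave the Rbp4 signal was not tested.

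Endothelial genes differed less, with 4 of 14 higher and a median of 0.67. Tek, the angiopoietin receptor, and Sox17 were higher by 1.55 and 1.52, and Kdr, Pecam1 and Cdh5 differed by 0.36, 0.36 and -0.25. Of 5 adipose genes 3 were higher, with Adipoq, adiponectin, reading 8.74 in the healthy bladder, 6.94 in the sham array and 8.12 at 17 mM. Of the nerve list only Uchl1 and Sox10 lay above the filter. Uchl1, an abundant neuronal hydrolase that other cells also make, read 11.20, 6.48, 7.82, 10.11 and 10.37 on the healthy, sham, 1.7, 8.5 and 17 mM arrays, and Sox10, of glial cells, differed by 0.71.

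**Figure D3:**
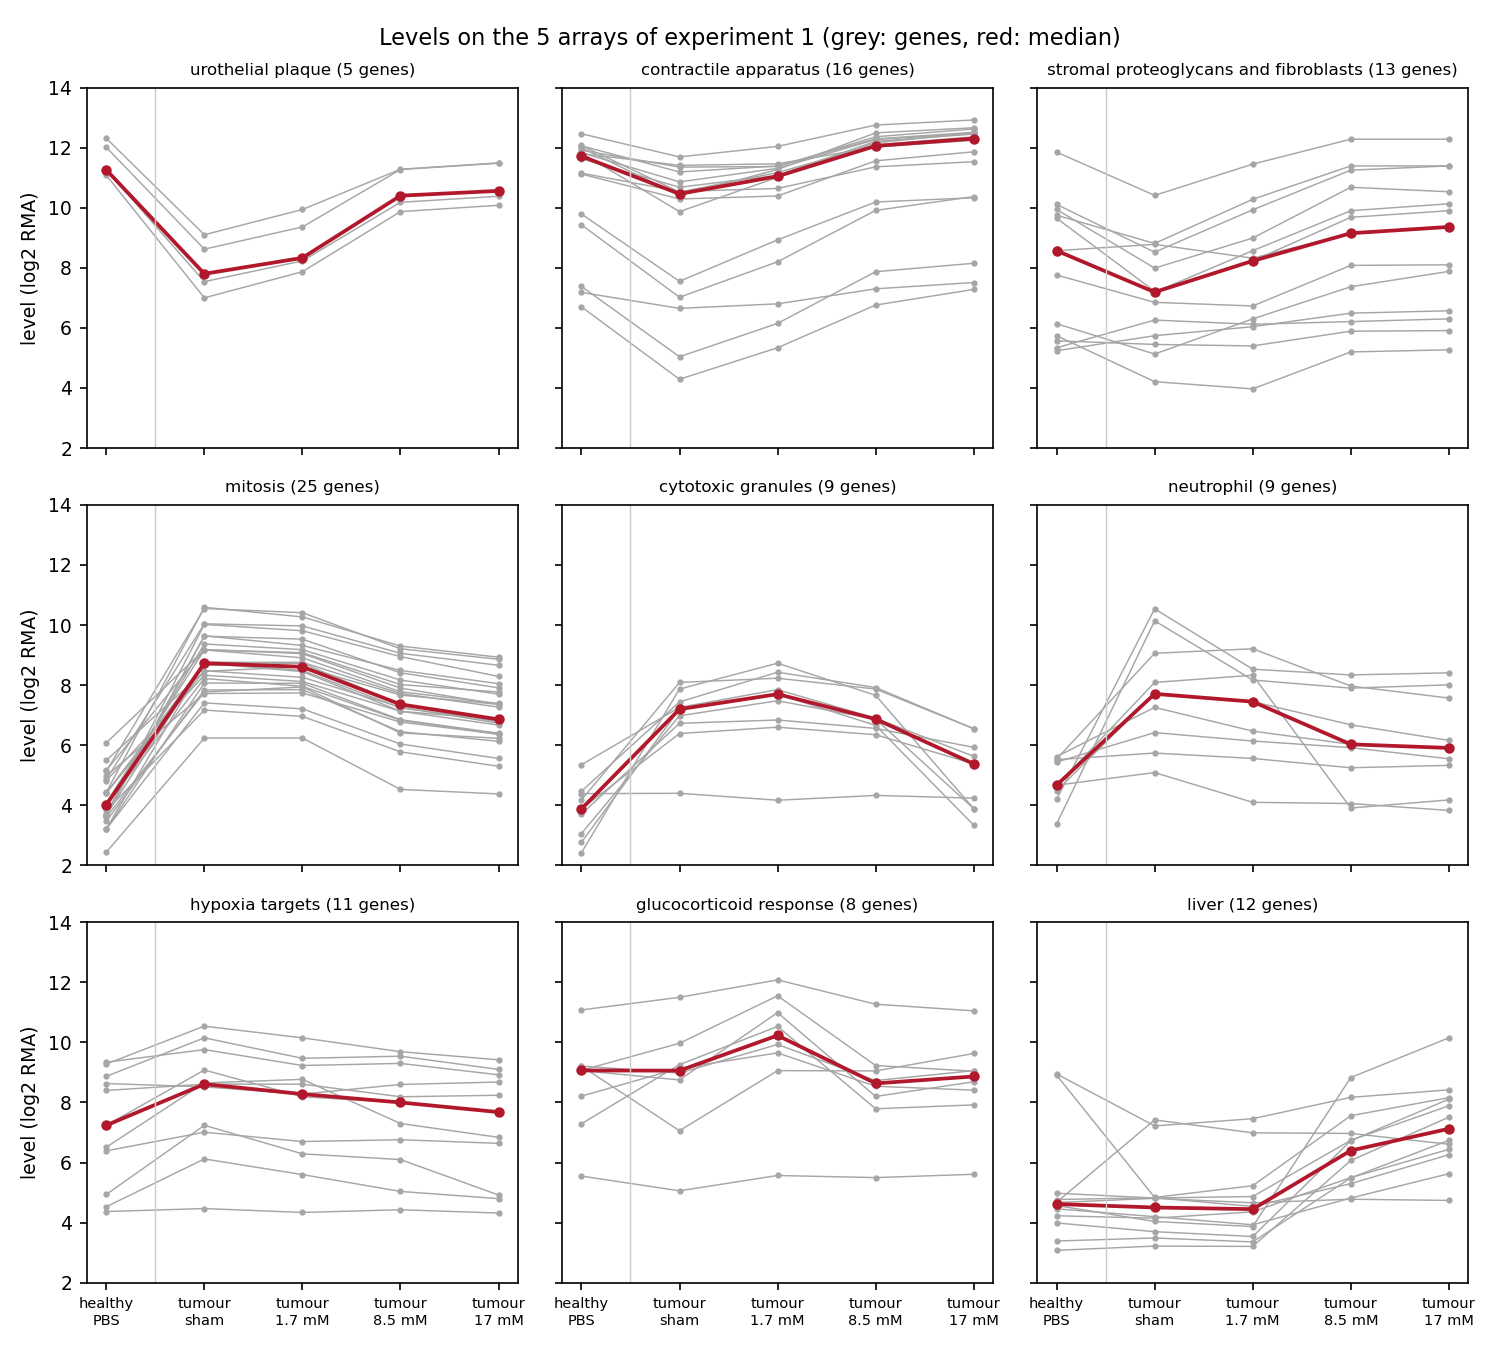
Levels (log2 RMA, y axis) of the members of 9 gene lists on the 5 arrays of experiment 1, 1 array each (x axis). Grey lines are genes above the filter and the red line is the list's median; cytotoxic granule genes are near the sham level at 8.5 mM and lower at 17 mM, glucocorticoid response genes peak at 1.7 mM, and the liver median is high at 8.5 and 17 mM alone among the tumour arrays.

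Granzymes, the serine proteases of cytotoxic lymphocytes, were among the largest decreases at 17 mM and differed little from the sham array at 8.5 mM. Gzmd read 2.42 in the healthy bladder, 7.87 in the sham-treated tumour, 8.73 at 1.7 mM, 7.66 at 8.5 mM and 3.89 at 17 mM, which made it 15.8-fold lower than the sham array. Gzmg read 2.77, 7.20, 7.70, 6.66 and 3.34, and Gzme read 3.06, 6.98, 7.48, 6.87 and 3.89. For all 3 the 17 mM array alone among the tumour arrays of experiment 1 was under the filter's level of 4.16 log2, where differences are compressed. These genes belong to a cluster of near-identical paralogues, so their probe sets may share signal. Gzmb, the granzyme of most killer cells, was lower by 1.54 (8.09 and 6.55), and Gzma by 0.89.

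The granule list as a whole depended on which sham array was taken. Of 9 members 6 were at least 2-fold lower and none higher, but 4 lay beyond both sham arrays, and the list median was -1.54 against the sham array of experiment 1 and -0.57 against that of experiment 2. The sham arrays themselves differed by a median of -0.77 over this list. Gzmf was lower by 1.63 than the sham array of experiment 1 and higher by 1.07 than that of experiment 2, and Nkg7, a granule membrane protein, was 1.01 lower and 0.57 lower. Il12rb1, an interleukin 12 receptor chain, read 4.20 in the healthy bladder, 7.81 in the sham-treated tumour, 7.18 at 1.7 mM, 6.32 at 8.5 mM and 5.29 at 17 mM, and Cd244a, a receptor of natural killer cells, read 3.52, 7.04, 5.57, 5.35 and 4.53. Il12rb1 was also 2.03 and Cd244a 2.14 lower than the sham array of experiment 2. T cell receptor genes differed less: of 7, Cd3g alone was 2-fold lower (-1.10), and it was 0.25 lower against the sham array of experiment 2. Of the B and plasma cell list 2 genes lay above the filter, neither 2-fold different.

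Neutrophil genes were lower in 7 of 9 cases, with a median of -1.49, and 4 of them were beyond both sham arrays. The median against the sham array of experiment 2 was -0.94. S100a8 and S100a9, the calprotectin subunits, were each lower by 2.13, S100a8 from 10.14 to 8.01 and S100a9 from 10.54 to 8.41, and at 1.7 mM they already read 8.17 and 8.53. Lcn2, lipocalin 2, which epithelium also makes, read 4.65 in the healthy bladder, 8.09 in the sham-treated tumour, 8.33 at 1.7 mM, 3.91 at 8.5 mM and 4.18 at 17 mM, so its drop lay between 1.7 and 8.5 mM. Csf3r and Clec4d were lower by 1.35 and 1.55 than the sham array of experiment 1 and by 0.44 and 0.49 than that of experiment 2. The chemokines that attract neutrophils were lower as well. Cxcl1 read 3.45, 8.06, 7.03, 5.95 and 5.85 on the 5 arrays, and Cxcl2 read 3.07, 9.30, 8.20, 7.47 and 7.10. Of 9 such attractants and acute cytokines 5 were lower and 3 beyond both sham arrays, with a median of -1.16 against the sham array of experiment 1 and -0.34 against that of experiment 2. Il1b was lower by 1.69, from 9.57 to 7.88, but by 0.16 against the sham array of experiment 2. Letters of the kappa-B site, GGGNNTTTCC or GGGNNTTCCC, were in 2 of 8 promoters of this list, against 3.73% of all genes.

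CC chemokines, which attract monocytes and lymphocytes, split by member. Of 13, 6 were lower and 4 beyond both sham arrays. Ccl3 was lower by 2.31, Ccl12 by 1.94, Ccl2 by 1.83 and Ccl24, an eosinophil attractant, by 1.63. Ccl8 read 6.94 in the healthy bladder, 9.86 in the sham-treated tumour, 10.53 at 1.7 mM, 11.00 at 8.5 mM and 10.48 at 17 mM, and Ccl9, Ccl6 and Ccl11 differed by 0.16, -0.15 and -0.04.

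Interferon-gamma response genes were lower. Of 8, 5 were at least 2-fold lower, all 5 beyond both sham arrays, with a list median of -1.32 against the sham array of experiment 1 and -1.36 against that of experiment 2. Cxcl9, a T cell chemokine, read 4.27 in the healthy bladder, 10.52 in the sham-treated tumour, 10.37 at 1.7 mM, 9.97 at 8.5 mM and 8.82 at 17 mM. Cd274, which encodes the checkpoint ligand PD-L1, read 5.31, 7.88, 7.66, 7.06 and 6.27, and Ido1, the tryptophan-degrading enzyme, read 3.43, 6.94, 6.72, 5.54 and 4.93. In the antigen presentation lists Nlrc5, the activator of class I genes, was lower by 1.64 and the immunoproteasome subunits Psmb9 and Psmb8 by 1.49 and 1.39, while the class I heavy chains H2-K1 and H2-D1 differed by -0.49 and -0.54. Of 6 class II genes 2 were 2-fold lower, neither of them beyond both sham arrays. The antiviral list had 3 of 9 lower, of which Rsad2, viperin, reading 8.70 in the sham array and 6.75 at 17 mM, and Irf7 were beyond both sham arrays, and Usp18 and Ifit3 each differed by -0.23.

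Letters of the interferon-stimulated response element, TTTCNNTTTC, were in the windows of 6 of the 13 genes of both interferon lists that had a promoter (46.2%), against 3.99% of all genes. The letters TTCNNNGAA of the gamma-activated site were in 2 of 13 (15.4%), against 9.55%. The stretches of 100 bases that follow show the element in capitals for the 2 genes of each list with the largest decreases among those with a match.
Rsad2, chr12:26456518-26456617, minus strand: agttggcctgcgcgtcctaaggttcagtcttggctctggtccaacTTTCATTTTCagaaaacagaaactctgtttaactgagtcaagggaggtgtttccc
Ifit1, chr19:34640759-34640858, plus strand: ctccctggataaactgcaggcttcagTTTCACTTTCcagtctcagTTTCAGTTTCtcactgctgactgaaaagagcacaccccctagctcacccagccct
Cxcl10, chr5:92349040-92349139, minus strand: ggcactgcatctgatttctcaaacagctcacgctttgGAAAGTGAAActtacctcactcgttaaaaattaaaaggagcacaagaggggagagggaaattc
Gbp2, chr3:142620559-142620658, plus strand: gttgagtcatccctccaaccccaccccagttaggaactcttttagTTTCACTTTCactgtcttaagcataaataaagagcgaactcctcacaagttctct
The capitals of Cxcl10 are the element on the opposite strand, and Ifit1 holds 2 matches in the stretch. Cxcl10, a chemokine of the CXCR3 receptor, was lower by 1.85 (9.14 and 7.29), Gbp2, a guanylate-binding GTPase, by 0.95 (11.01 and 10.06) and Ifit1, an antiviral RNA-binding protein, by 0.73 (7.19 and 6.46), so a match was shared by genes with larger and smaller differences.

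**Figure D4:**
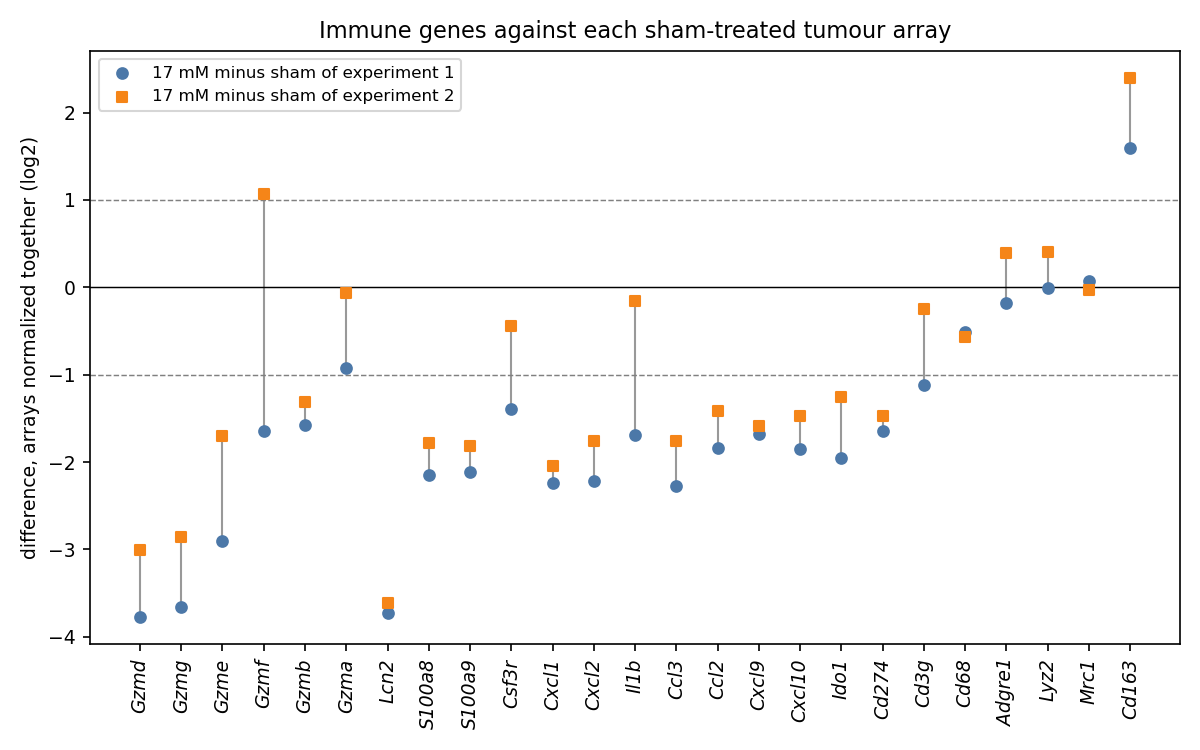
Difference at 17 mM minus the sham array of experiment 1 (circles) and minus that of experiment 2 (squares) for 25 immune genes, all 9 arrays normalized together (log2, y axis; genes on the x axis). Grey lines join the values of a gene and dashed lines mark 2-fold; for Gzme, Gzmf, Gzma, Csf3r, Il1b and Cd3g the circle and square differ by more than the sham arrays' 95th percentile of 0.833.

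Macrophage genes differed by less than 2-fold or were divided. All 9 pan-macrophage genes were below the sham array but none by 2-fold, with a median of -0.44 against it and -0.28 against the sham array of experiment 2. Adgre1, a macrophage surface receptor, read 6.05 in the healthy bladder, 8.27 in the sham-treated tumour, 8.37 at 1.7 mM, 8.58 at 8.5 mM and 8.10 at 17 mM. Genes of resident-type macrophages were higher in 5 of 6 cases and beyond both sham arrays in 4. Cbr2 and Gas6, higher by 2.35 and 1.01, read 10.91 and 9.39 in the healthy bladder and 7.68 and 8.73 in the sham array. Cd163, Folr2, Mrc1, F13a1 and all 9 pan-macrophage genes read lower in the healthy bladder than in the sham array. Cd163, the haemoglobin scavenger receptor, read 5.28, 6.14, 8.03, 7.39 and 7.83, and Folr2, a folate receptor, read 6.69, 6.81, 7.32, 8.19 and 7.93. Mrc1, the mannose receptor, differed by 0.06. Of 8 genes of activated macrophages 2 were lower, Arg1, arginase 1, by 1.66 and Il1rn, the interleukin 1 receptor antagonist, by 1.34, and Trem2 and Gpnmb differed by 0.07 and 0.12. Itgax, CD11c of dendritic cells and some macrophages, was lower by 1.56. Of 8 mast cell genes on the array 5 lay above the filter, with 2 higher and 1 lower. The median over all 8 was 0.37. Without the 8.5 and 17 mM arrays 3 of the 5 stayed above the filter. Cpa3 and Cma1, granule proteases, were higher by 1.27 and 1.25. Hdc, which makes histamine, was lower by 1.25 but by 0.43 against the sham array of experiment 2. Erythroid genes were lower in 2 of 3 cases. Alas2, the haem enzyme of red cell precursors, read 6.44 in the healthy bladder, 8.24 in the sham-treated tumour, 6.25 at 1.7 mM, 7.16 at 8.5 mM and 5.82 at 17 mM, an order that did not follow dose.

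Stress and growth signalling genes of the tumour were lower in part. Of 14 targets of the integrated stress response, through which ATF4 raises amino acid synthesis and uptake, 7 were lower, all beyond both sham arrays, with a median of -1.16. Psph, the last enzyme of serine synthesis, read 6.63 in the healthy bladder, 8.76 in the sham-treated tumour, 8.29 at 1.7 mM, 6.88 at 8.5 mM and 6.68 at 17 mM, level with the healthy bladder. Trib3 and Asns, asparagine synthetase, were lower by 1.90 and 1.49, while Atf4 itself differed by -0.53. TGATGNAA, the letters searched for the amino acid response element, were in 4 of 13 promoters of the list (30.8%) and in 4.51% of all genes. Of 11 hypoxia targets 6 were lower and all 6 beyond both sham arrays. Car9, carbonic anhydrase 9, read 4.94, 7.24, 6.29, 6.10 and 4.92, and Bnip3, a mitophagy receptor, was lower by 1.12, while Vegfa differed by -0.37. The hypoxia letters ACGTG or GCGTG were in 9 of 10 promoters and in 46.7% of all genes. Of 13 glycolytic genes 3 were lower, Hk2, hexokinase 2, by 1.72, and Gapdh differed by -0.32. Of 13 genes of ERK output 4 were lower, among them Fosl1 by 1.90 and the feedback phosphatase Dusp6 by 1.36, and the early response gene Egr1 differed by 0.14. Among EGF family genes 4 of 10 were lower, the ligands Nrg1, Btc and Hbegf by 1.84, 1.75 and 1.70 and the receptor Erbb3 by 1.20, and Egfr differed by 0.27. Fgf15, an FGF gene, read 4.40 in the healthy bladder, 8.30 in the sham array and 5.74 at 17 mM. Met, the HGF receptor, was lower by 1.22, while Fgfr2 and its ligand Fgf7 were higher by 2.20 and 1.71.

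Housekeeping lists showed the scale on which these values stand. None of 17 oxidative phosphorylation genes and none of 16 proteasome genes was 2-fold from the sham array, with medians of 0.02 and -0.28. Cell death genes differed little: of 11 BCL2 family members 1, Bak1, was lower (-1.18), and not beyond both sham arrays, and Bcl2 differed by 0.00. Of 14 p53 targets 3 were higher, Phlda3 by 2.12, Trp53inp1 by 1.36 and Btg2 by 1.05, while Bbc3, Mdm2 and Cdkn1a differed by -0.86, -0.66 and -0.89. Only 2 of the 3 higher p53 targets lay beyond both sham arrays. Heat shock and endoplasmic reticulum chaperone lists had medians of -0.36 and -0.66, and the chaperones Hspa5, Hspa8 and Hspa1b differed by -0.75, -0.36 and -0.15.

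Since the agent carries oleate, genes of lipid handling were read as a group. Of 10 targets of PPAR and fatty acid sensing 5 were higher and 1 lower. Pdk4, which turns cells from glucose to fat, read 8.46 in the healthy bladder, 3.97 in the sham-treated tumour, 7.11 at 1.7 mM, 6.68 at 8.5 mM and 7.31 at 17 mM. Angptl4, a lipase inhibitor induced by fatty acids and by hypoxia, was lower by 1.48, and Plin2, the coat protein of lipid droplets, differed by -0.26. Of 13 fatty acid oxidation genes 4 were higher but 2 beyond both sham arrays. Acaa1b, a peroxisomal thiolase, read 10.48, 5.82, 7.36, 9.59 and 10.01, and Cpt1a, the entry step into mitochondria, differed by 0.48. Me1, Fads2 and Fads1 of fatty acid synthesis and desaturation were higher by 2.81, 2.76 and 1.88, while Fasn and Acaca differed by 0.15 and -0.39. Sterol synthesis genes stayed near the sham array, with 1 of 12 higher, Lss by 1.33.

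Of 14 genes of NRF2 and glutathione 7 were higher and 1 lower. Beyond both sham arrays lay 6 of the higher genes and not the lower one. Nqo1, a quinone reductase, read 9.00 in the healthy bladder, 4.55 in the sham-treated tumour, 5.78 at 1.7 mM, 7.77 at 8.5 mM and 8.41 at 17 mM, and Gsta4, a glutathione transferase, read 12.66, 10.11, 10.97, 12.12 and 12.23. Hmox1, haem oxygenase, was lower by 1.33, and Srxn1 and Txnrd1, classic NRF2 targets, differed by -0.10 and -0.64. Each of the 7 higher genes also read higher in the healthy bladder than in the sham array. Of 14 circadian clock genes 5 were at least 2-fold higher, 1 was lower and 8 were neither, with a median of 0.47. Dbp, an output factor, read 8.62, 4.63, 5.98, 6.75 and 8.24, and Arntl, which encodes BMAL1, read 5.04, 7.26, 6.92, 6.42 and 5.86, so these differed in opposite directions. The time of day of sampling is not given in the sources used here. Of 8 glucocorticoid-responsive genes Klf9 was higher by 2.57 and Fkbp5 lower by 1.34, and the list median was -0.26 at 17 mM, -0.40 at 8.5 mM and 1.11 at 1.7 mM.

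Among genes with a name and above the filter, Alb of the liver list gave the largest difference. At 7 liver genes above the filter the 17 mM array stood at least 2-fold above every other array of experiment 1. Alb, albumin, read 4.57 in the healthy bladder, 4.04 in the sham-treated tumour, 3.87 at 1.7 mM, 8.83 at 8.5 mM and 10.15 at 17 mM, 69.1-fold above the sham array. Serpina1c and Serpina1b, alpha-1 antitrypsin genes of the mouse that are near-identical copies and may share signal, read 3.70 and 8.11, and 3.22 and 7.51, in the sham and 17 mM arrays. Of the genes above the filter, 7 (0.0585%) were at least 2-fold higher at 17 mM than on all 4 other arrays of experiment 1. None (0%) was 2-fold lower than all 4. The filter used the mean over the 9 arrays, the 17 mM array among them, and genes under it were not counted. The 7 were Serpina1b, Serpina1c, Alb, Cyp3a11, a drug-metabolising enzyme, Hpx, hemopexin, Apoa2, an apolipoprotein, and Cps1, the urea cycle enzyme, and each is known for expression in liver.

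All 18 liver genes on the array were read, since 3 of the 12 above the filter reached it only through the 8.5 and 17 mM arrays of experiment 1. Of the 18, 14 were at least 2-fold higher at 17 mM than in the sham array and none lower, with a median of 2.28. The 6 under the filter include Serpina1a, a further near-identical copy, which read 2.61 in the sham array and 7.14 at 17 mM, and Apoc3, with 3.22 and 5.97. The summed linear level of the 12 above the filter was 520 in the sham array, 399 in the sham array of experiment 2, 1185 in the healthy bladder of experiment 1 and 2905 at 17 mM. Some markers were not higher: Apoh differed by -0.07, Hp, haptoglobin, by -0.81, and Apob read 4.02 at 17 mM and Tat 4.21, at or near the filter's level on each array of experiment 1. Kidney genes did not take part. None of 7 was 2-fold from the sham array, and Kap, an androgen-regulated kidney gene, read 9.61 in the healthy bladder, 5.97 in the sham array and 5.84 at 17 mM. Where the liver transcripts came from was not tested.

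To describe the comparison against a yardstick that used none of its arrays, genes were chosen on experiment 2, as at least 4-fold higher or lower in its sham-treated tumour than in its healthy bladder. Of the 601 tumour-high genes 464 (77.2%) were at least 2-fold lower at 17 mM than in the sham array of experiment 1 and none was 2-fold higher, with a median of -1.40 and quartiles of -1.72 and -1.04. Of the 691 tumour-low genes 664 (96.1%) were at least 2-fold higher and none lower, with a median of 2.14 and quartiles of 1.55 and 2.71. The same medians were -1.02 and 1.86 at 8.5 mM and -0.25 and 0.61 at 1.7 mM. The tumour-high and tumour-low genes thus differed in opposite directions, and the ordering of the arrays followed dose in both sets.

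The distance left to the healthy bladder was unequal in the sets. In experiment 1 the tumour-high genes stood 3.01 above healthy in the sham array and 1.67 above it at 17 mM (medians), and 121 of 601 (20.1%) were within 2-fold of healthy. The tumour-low genes differed from healthy by a median of -2.59 in the sham array and -0.66 at 17 mM, and 497 of 691 (71.9%) were within 2-fold of healthy. Of the rest, 161 were still 2-fold below and 33 were 2-fold above the healthy array. These counts rest on 1 healthy array, and the healthy array also held kidney transcripts: Umod, a protein of the kidney tubule, read 7.10 there and 2.68 to 2.93 on the 4 tumour arrays of experiment 1. The part of kidney tissue in the tumour-low set was not tested.

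Some genes went against their set. Among tumour-high genes Sprr2f, a small proline-rich envelope protein, read 3.64 in the healthy bladder, 7.89 in the sham-treated tumour, 8.99 at 1.7 mM, 9.10 at 8.5 mM and 8.59 at 17 mM. The others highest in the set were Ccl8 (0.62), the anchoring proteins Akap9 (0.57) and Akap2 (0.48), Olfml3 (0.42), the nuclear proteins Crebbp (0.38), Thoc2 (0.29) and Chd4 (0.11), and the macrophage-associated Pf4 (0.08) and Mrc1 (0.06). Akap9, Crebbp, Thoc2 and Chd4 were not 2-fold higher in the tumour of experiment 1. They read 5.74, 7.43, 7.36 and 5.44 in its healthy bladder and 5.32, 7.53, 7.55 and 5.97 in its sham array. Against the sham array of experiment 2 they differed by -0.27, -0.84, -0.38 and -1.22 at 17 mM. Among tumour-low genes the 4 that were not higher were Aadat (-0.20), Hsd3b4 (-0.16), Kap (-0.13) and Miox (-0.04), of which Hsd3b4, Kap and Miox are known for expression in kidney. The next were Rspo1 (0.16), Ugt2b35 (0.41), Slc27a2 (0.44), Llgl2 (0.56), Efcab1 (0.60) and Adgrg6 (0.62).

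**Figure D5:**
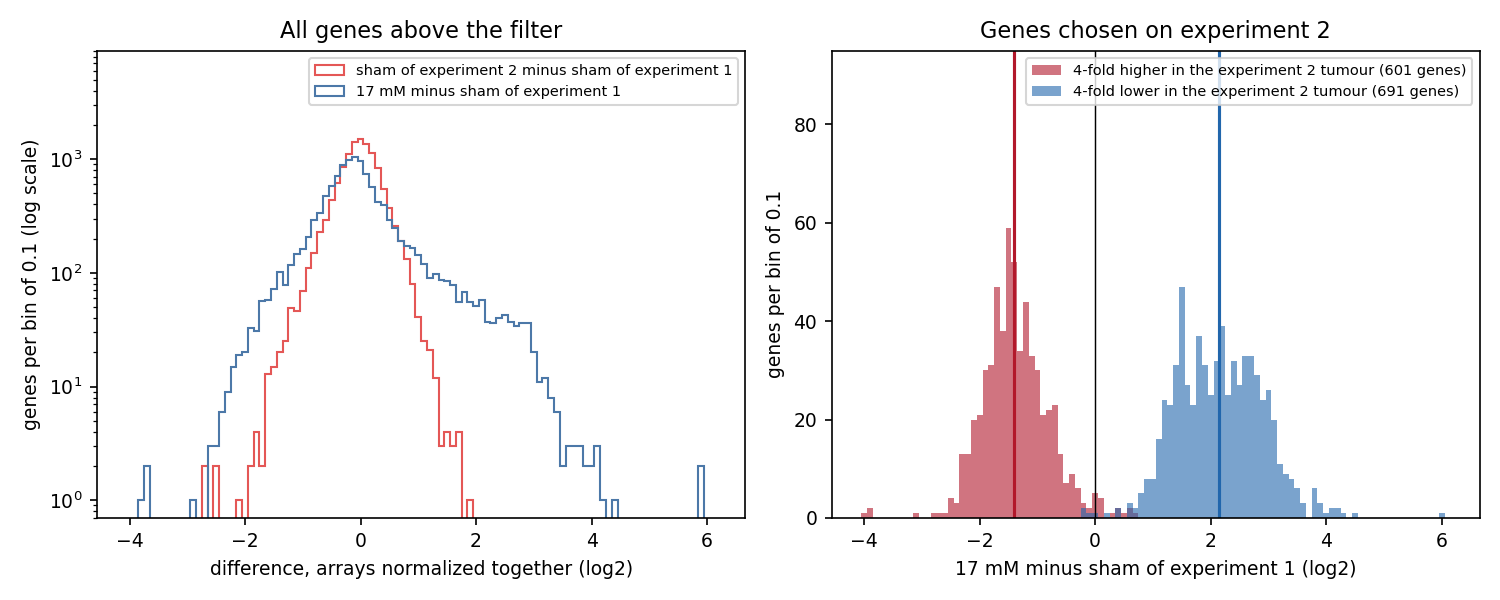
Left, number of genes (log scale, y axis) by difference (log2, x axis, arrays normalized together) for 17 mM minus sham of experiment 1 and for sham of experiment 2 minus sham of experiment 1. Right, 17 mM minus sham of experiment 1 for genes chosen on experiment 2 as 4-fold higher (601, median -1.40) or lower (691, median 2.14) in tumour than healthy, with vertical lines at the medians; the sets overlap little and the sham-to-sham distribution is the narrower one on the left.

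Among the largest increases, besides the muscle, liver and redox genes above, were Inmt, an amine methyltransferase, higher by 4.53, Kcnf1, a potassium channel subunit, by 4.31, Fmo2, a flavin monooxygenase, by 4.21, Pcolce2, an enhancer of procollagen processing, by 4.09, Rbfox3, a splicing factor best known from neurons, by 4.06, and Armh4 by 3.82. Kcnf1 read 7.22 in the healthy bladder, 3.78 in the sham-treated tumour, 5.19 at 1.7 mM, 7.24 at 8.5 mM and 8.09 at 17 mM, and the others showed the same order of tumour arrays. Among the largest decreases was also Csprs, which read 3.14, 6.69, 6.14, 4.24 and 3.91. The genes farthest below all other arrays of experiment 1 were close to the next lowest array, with Erdr1 0.52 under it and Vdr, the vitamin D receptor, 0.50 under it, although Vdr read 7.18 at 1.7 mM and 4.73 at 17 mM.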

How the data were processed

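Per the labels' protocols, frozen bladders were ground under liquid nitrogen, RNA came from RNeasy columns, and a GeneChip 3' IVT Express kit took 100 ng of it. The values are deposited log2 intensities of an Affymetrix mouse PM array. Per the submitters' processing notes the tools were RMA and version 4.0.1.36 of the Transcriptome Analysis Console. The experiments appear to have been normalized apart (array medians 4.42 to 4.45 and 4.20 to 4.24), so a distance from the sham array of experiment 2 was taken after quantile normalization of all 9 arrays together.

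Of 45077 probe sets, 40 were controls, 28898 named 1 gene in GEO's platform annotation and 551 named several; 28689 were matched to current symbols by Entrez number. The probe set with the highest mean over the 9 arrays stood for a gene, and the lowest 30% of genes (under 4.16 log2) were left out. In none of the 4326 genes with more than 1 probe set above the filter did probe sets differ 2-fold in opposite directions. Their sizes could still differ, as for Ckm (0.04 to 3.52), Dst (-0.03 to 2.47) and Epcam (0.53 to 1.86). With 1 array a side no test was run, and genes were counted past a 2-fold difference. The steps were tested on simulated data.

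Promoter windows and coordinates are RefSeq's (GRCm38.p6), with mouse chromosome 18 not used here. The 69 gene lists and the choice of this comparison were made with earlier results of these data known. Named were list members, the 15 largest increases and decreases beyond both sham arrays, the 10 genes farthest above and below the other arrays of experiment 1, and the 10 going farthest against each set chosen on experiment 2. Of 815 list entries 727 were named on the array and 647 lay above the filter. Cdh2, Umod, Apob, Tat, Serpina1a, Apoc3 and the Y-linked genes are list members under the filter and are quoted as levels only. Alternatives were the normalization, the reference array, the filter, the probe set rule, a floor on low values and the threshold. Computations ran in Python 3.11.15 (numpy 2.4.6, pandas 2.3.3), and figures in matplotlib 3.10.9.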

Additional observations from a re-analysis of the deposited data

Results flagged for a closer look

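Probe sets that the annotation used here names no gene for were not part of the gene counts, and many of them differed as well. Of 5549 such probe sets above the filter, 385 (6.94%) were at least 2-fold above both sham arrays at 17 mM and 193 (3.48%) at least 2-fold below both. The largest increases were of probe sets 1459737_PM_s_at, which read 10.12 in the healthy bladder, 3.15 in the sham-treated tumour, 4.16 at 1.7 mM, 8.74 at 8.5 mM and 9.38 at 17 mM, and 1454608_PM_x_at, with 10.30, 3.63, 4.98, 9.22 and 9.85. The largest decrease was of 1436853_PM_a_at, with 7.18 in the sham array and 4.45 at 17 mM. No group of the comparison holds 4 or more arrays, so single arrays could not be set against their group.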

How the results depend on the processing

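The counts of 2-fold higher genes stayed within 1.5 times of 1426 under joint normalization, either other reference array or the mean of the sham arrays, no filter, a filter at the lowest 50%, the mean of probe sets and a floor on low values. The same held for the 833 lower genes except with the lowest 50% left out, which tested fewer genes and gave 538. A 4-fold threshold gave 522 higher and 72 lower, and 458 and 42 beyond both sham arrays. Sets chosen at 8-fold on experiment 2 had medians of -1.645 and 2.59. Joint normalization gave 60.1% of the 2-fold calls as higher, against 63.1%.

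Of 176 named genes 2-fold from the sham array, 159 were still 2-fold away in the same direction with the sham array of experiment 2 as reference and 152 with each tumour taken against the healthy array of its own experiment. The 37 list medians past 2-fold include those of lists with 1 or 2 genes above the filter. Of the 37, 30 and 27 were still 2-fold away in the same direction with those references, and 30 with the mean of probe sets. Without a filter 25 were, since members of low signal then entered; the lists that dropped out include Hox genes (0.73), squamous genes (0.39), matrix proteases (-0.71), neutrophil attractants (-0.65), the integrated stress response (-0.95) and fibrillar collagens (0.96). Signs turned with the sham array of experiment 2 for Gzmf (1.07), Krt16 (0.36), Plau (0.31) and Fmod (-0.11), and through the healthy arrays for Krt16 (0.24), Plau (0.30) and Mmp12 (0.73). Without a filter the sex chromosome list, then 4 genes and not Xist alone, had a median of -0.09. The cause of these turns was not tested. Set medians were not computed with the sham array of experiment 2 as reference, since it chose the sets.

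No paired analysis was possible because the 17 mM group has 1 array and the results come from no test. Low signal limits the values near or under 4.16 log2, such as those of Gzmd, Gzme, Gzmg and Alb.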
